A study of Mus musculus with 32 samples.

Results

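The 9 genes described here, Reln, Tbr1, Bcl11b, Fezf2, Foxp2, Rorb, Pou3f2, Cux1 and Cux2, mark the layers of the mouse cerebral cortex. They were chosen by symbol, and all 9 are among the 55291 symbols of the count tables. Messenger RNA was sequenced from the brains of C57BL/6J mice that were wild type (Dhcr7+/+, WT) or lacked Dhcr7 (Dhcr7-/-, KO). The Dhcr7 enzyme completes cholesterol synthesis, and its loss models Smith-Lemli-Opitz syndrome. Brains came from 3 embryonic stages, named by days after conception (E12.5, then E14.5, then E16.5), and from newborn pups (postnatal day 0, PND0), with 4 libraries for each of the 8 groups of genotype and stage. Animals received no treatment that the labels name. The labels give neither the litter nor the sex of a brain, nor how the Dhcr7 allele was made, and nothing says whether libraries of a group came from separate animals. P-values therefore measure the spread between libraries.

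Neurons of the cortex are born in an inside-out order. Cajal-Retzius cells settle first, under the brain surface, and secrete reelin, the product of Reln, which guides the neurons that migrate after them. Neurons born next form the deep layers. Tbr1 is the transcription factor of neurons that project to the thalamus, and Fezf2 specifies the neurons that project to the brain stem and spinal cord. Bcl11b (Ctip2) acts below Fezf2 in the latter neurons, and Foxp2 marks deep-layer neurons. Rorb is a nuclear receptor of layer 4, which receives thalamic input. Pou3f2 (Brn2), Cux1 and Cux2 are homeodomain transcription factors of the late-born upper layers. Several of these genes are also used outside the cortex: Bcl11b and Foxp2 in the striatum, Foxp2 and Rorb in the thalamus, and Reln in the cerebellum. In whole brain, fewer cells of a type and less RNA per cell cannot be told apart.

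The genes lie on 7 chromosomes of the mouse genome (build GRCm38, the same assembly as mm10). Reln lies on chromosome 5, from 21884454 to 22344702 on the minus strand, with 65 exons in its longest annotated transcript of 11699 nucleotides. Chromosome 5 also holds Cux2 (121856366 to 122050102) and Cux1 (136248135 to 136567490), both on the minus strand. Tbr1 is at 61802930 to 61814114 of chromosome 2 and Foxp2 at 14901349 to 15441977 of chromosome 6, both on the plus strand. Bcl11b (chromosome 12, 107910403 to 108003602), Fezf2 (chromosome 14, 12342094 to 12348189), Rorb (chromosome 19, 18930605 to 19111196) and Pou3f2 (chromosome 4, 22482780 to 22488366) are on the minus strand. Pou3f2 has 1 exon.

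In the WT brains Rorb and Reln rose at every step, 6.27-fold and 2.43-fold from E12.5 to PND0, and Pou3f2 fell to birth. The sequences just before the start are shown for these 3 genes with unlike courses. Each is the 250 bases before the start of a RefSeq transcript (GRCm38.p6), given 5′ to 3′ on the strand of the gene, and none reaches into the annotated gene. Capitals mark the GC box GGGCGG and the CCAAT box CCAAT, searched on both strands, so that CCGCCC and ATTGG are also in capitals.
Reln, chr5:22344706-22344955, minus strand: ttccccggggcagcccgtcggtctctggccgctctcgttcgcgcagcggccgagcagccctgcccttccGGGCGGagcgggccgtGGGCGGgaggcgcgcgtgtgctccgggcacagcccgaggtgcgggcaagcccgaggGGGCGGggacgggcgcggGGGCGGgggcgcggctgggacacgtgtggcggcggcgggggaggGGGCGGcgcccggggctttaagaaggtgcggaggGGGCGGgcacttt
Rorb, chr19:19111197-19111446, minus strand: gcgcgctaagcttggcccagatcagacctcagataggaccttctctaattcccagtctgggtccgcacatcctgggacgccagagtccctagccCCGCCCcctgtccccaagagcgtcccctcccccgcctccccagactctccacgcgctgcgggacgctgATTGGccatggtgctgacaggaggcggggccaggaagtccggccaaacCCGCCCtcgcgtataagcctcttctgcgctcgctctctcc
Pou3f2, chr4:22488367-22488616, minus strand: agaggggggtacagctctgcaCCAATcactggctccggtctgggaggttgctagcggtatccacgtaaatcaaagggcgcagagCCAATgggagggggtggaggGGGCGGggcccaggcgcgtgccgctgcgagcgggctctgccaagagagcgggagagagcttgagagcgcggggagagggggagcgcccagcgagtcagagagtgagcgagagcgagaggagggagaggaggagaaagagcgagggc

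The Reln sequence held 6 GC boxes and 37 CpG sites. The Rorb sequence held 2 GC boxes and 1 CCAAT box, with 18 CpG sites at 66.0% G+C, and that of Pou3f2 held 1 GC box and 2 CCAAT boxes, with 18 CpG sites at 66.8% G+C. Over all 32851 promoters of that length, the medians were 52.4% G+C and 6 CpG sites. At least 1 GC box was present in 32.7% of them and at least 1 CCAAT box in 33.8%. The TATA box TATAAA (12.4% of all promoters), the homeodomain core TAATTA (4.84%), the T-box site AGGTGTGA (1.12%) and the octamer ATGCAAAT (1.6%) had no match in these 3 windows. The sequence table covered 8 of the genes, with 10 promoters. A second Rorb promoter (chr19:19001118-19001367), not shown, had 39.2% G+C, 4 CpG sites and neither a GC box nor a CCAAT box. A match of letters is a description of the sequence and not a binding site.

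Levels are given as CPM, that is, the counts of a gene scaled to a common library total with a correction for composition between the 32 libraries (TMM). The libraries held between 13.87 and 28.32 M counts, and the 9 genes had between 74 (Rorb) and 10846 (Bcl11b) counts in a library. Dhcr7 itself was at 58.6 to 102 CPM in WT and 11.4 to 26.7 CPM in KO libraries, and the genotypes did not overlap at any stage. Markers of forebrain, thalamus, midbrain and cerebellum were present in every group. The 10 hindbrain and spinal cord markers summed to 0.238 to 34.2 CPM, and 8 of them had no count in the KO group at PND0. The 16 midbrain and cerebellum markers summed to only 314 CPM in E16.5 WT replicate 1 and to 249 CPM in PND0 KO replicate 4, with En2, a midbrain and cerebellum transcription factor, at 0.839 and 0.298 CPM. Their sums were 390 to 610 CPM in the other E16.5 libraries and 350 to 531 CPM in the others of PND0. In E12.5 WT replicate 1 the sum was 510 CPM against 608 to 794 CPM in the other WT libraries of that stage, and in E12.5 KO replicate 1 it was 706 CPM against 833 to 841 CPM in the other KO libraries. PND0 WT replicate 1 had 2.71 CPM of En2. The share of a ribosomal RNA gene was 5.639% for E12.5 KO replicate 1 (0.191% to 0.376% for the others of that stage) and 3.754% for E16.5 WT replicate 1 (0.356% to 0.626% for the others). How much of each region was taken is not given in the labels, and calls that change without these libraries are given with and without them. At E14.5 the ribosomal RNA share was 2.679% and 2.553% in KO replicates 3 and 4, against 0.869% to 1.174% in the other libraries of that stage. Those KO libraries were left out only 1 at a time.

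**Figure D1:**
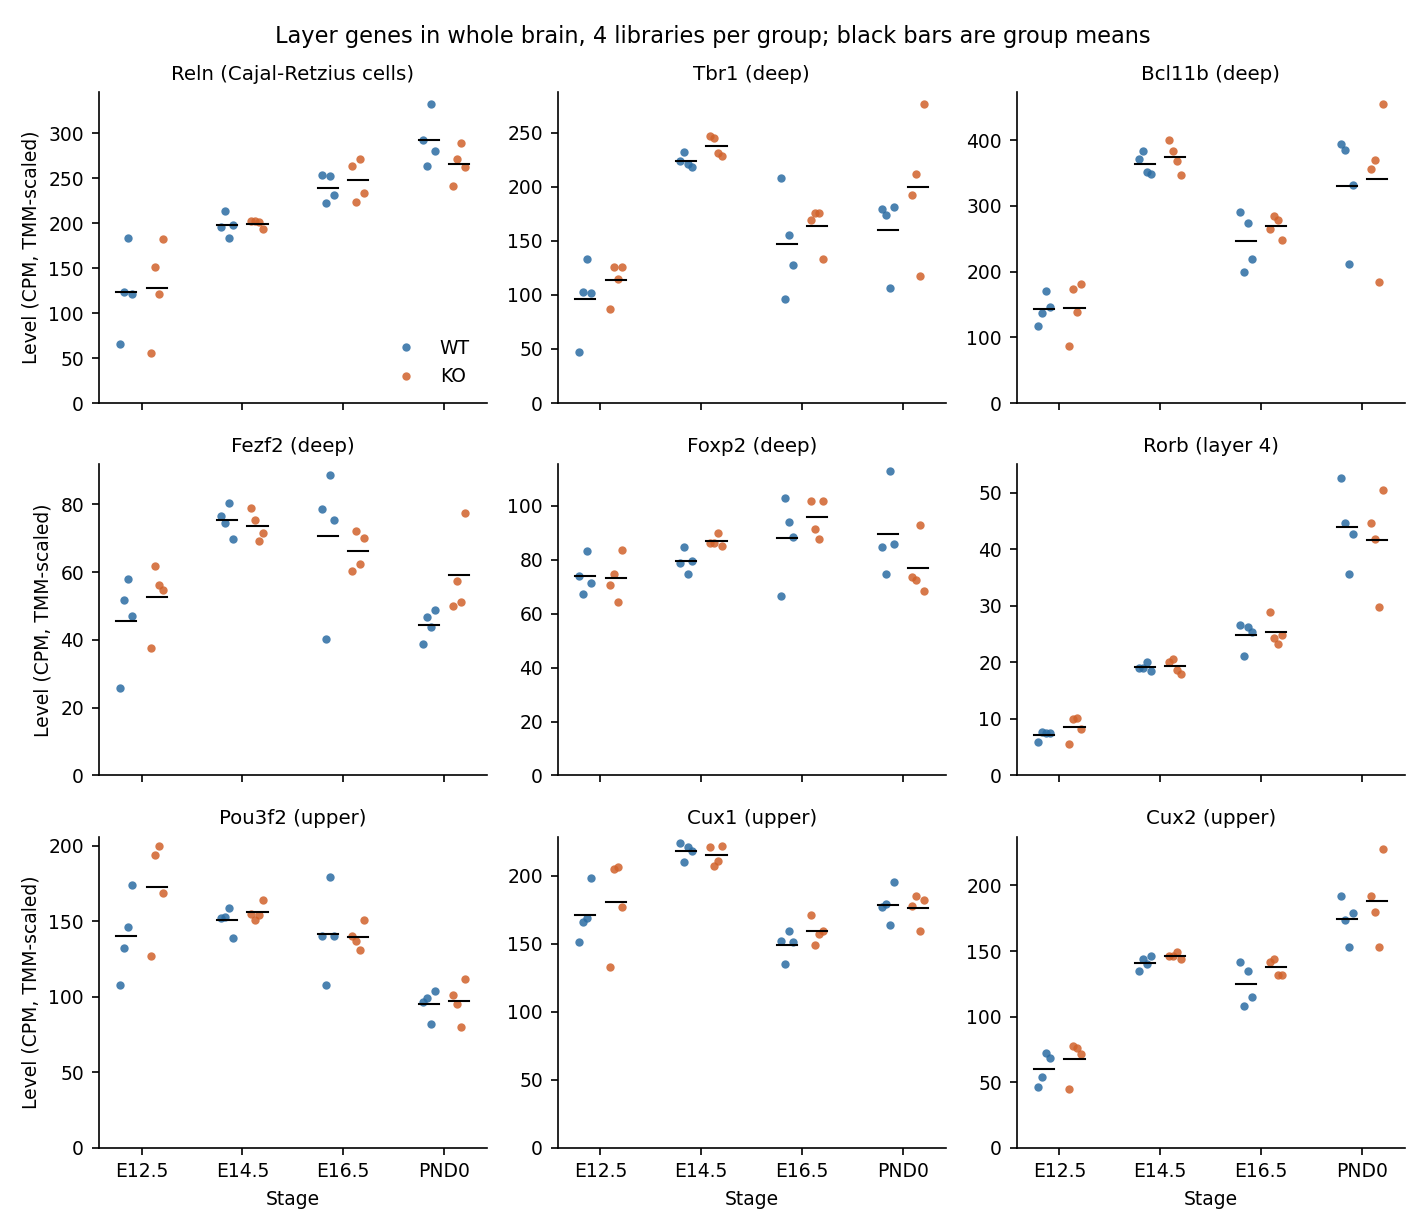
Levels of the 9 genes (vertical axis, CPM scaled with TMM, from 0) at the 4 stages (horizontal axis) in WT (blue) and KO (orange) brains; each point is a library, black bars are means of 4 libraries. Rorb climbs from 5.85 to 7.62 CPM at E12.5 to 35.7 to 52.7 CPM at PND0 in WT, Pou3f2 is lowest at PND0, and the points of the genotypes lie among each other in most groups.

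The first question was in which order these genes rise in the WT brain. From E12.5 to E14.5, 7 of the 9 genes rose and none fell: Reln, Tbr1, Bcl11b, Fezf2, Rorb, Cux1 and Cux2. Over all genes tested, 27.3% were called higher and 30.5% lower at this step (adjusted p under 0.05, edgeR quasi-likelihood test with Benjamini-Hochberg adjustment over all genes). Genes of the deep, granular and upper layers thus rose over the same interval, and the largest rises were those of Rorb, Bcl11b, Cux2 and Tbr1. Without E12.5 WT replicate 1, where 5205 of all 18372 genes tested were called higher and 5342 lower, the same 7 genes were called. Their log2 fold changes then ran from 0.278 (Cux1) to 1.32 (Rorb). Other neuron markers rose too: 7 of 8 for GABA neurons and 4 of 7 pan-neuronal genes were called higher, and none lower. Of 10 markers of striatum and ventral forebrain, 6 were called higher and 3 lower. Of 7 markers of meninges and fibroblasts, 5 were called lower and none higher. The part of composition in the rises of the layer genes was not tested. Each step compared 4 with 4 libraries, neighbouring steps share the libraries of a stage, and each stage was deposited as its own count table, so that stage and table cannot be told apart.

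Rorb had the largest rise. It measured 5.85, 7.62, 7.60 and 7.52 CPM in the 4 WT libraries at E12.5, then 19.0, 19.0, 20.1 and 18.5 CPM at E14.5, 26.7, 21.1, 26.2 and 25.4 CPM at E16.5, and 52.7, 44.6, 35.7 and 42.8 CPM at PND0. No library of a stage overlapped with the stage before it. The log2 fold change was 1.39 (SE 0.102, adjusted p 4.76e-06) at the first step, 0.40 (SE 0.0881, adjusted p 0.00106) at the second and 0.79 (SE 0.12, adjusted p 7.18e-05) at the last. From E12.5 to PND0 Rorb rose 6.27-fold (95% interval 5.03 to 7.81). Rorb and Reln were the members called higher at all 3 steps, and the 3 calls of Rorb held under every alternative setting that was run.

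Reln, the reelin gene, climbed at every stage from a wide start. Its WT libraries measured 66.0, 123, 183 and 121 CPM at E12.5, 196, 214, 184 and 198 CPM at E14.5, 253, 222, 252 and 231 CPM at E16.5, and 292, 264, 332 and 280 CPM at PND0. Libraries of neighbouring stages did not overlap, although E12.5 replicate 3 came close to the lowest E14.5 library (183 against 184 CPM). The steps were 0.66 (SE 0.250, adjusted p 0.0486), 0.29 (SE 0.0596, adjusted p 0.000509) and 0.26 (SE 0.0810, adjusted p 0.0151) on the log2 scale. None of these calls held under every setting. The first was lost in 6 of 8 fits that left out 1 library (highest adjusted p 0.0873) and with no filter on low counts (adjusted p 0.141). The second was lost with offsets for transcript length (log2 fold change 0.105, adjusted p 0.129) and with all 32 libraries in 1 fit (adjusted p 0.312). The third was lost in the fit of all 32 libraries (adjusted p 0.251) and in 1 of 8 fits that left out 1 library, the one without E16.5 WT replicate 4 (adjusted p 0.0507). The rise from E12.5 to PND0 was 2.43-fold (95% interval 1.70 to 3.48, adjusted p 0.000547) and was called in all 8 such fits.

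Among the deep-layer genes, Tbr1, Bcl11b and Fezf2 had their highest WT mean at E14.5. Tbr1 measured 46.8, 103, 133 and 102 CPM at E12.5 and 224, 232, 221 and 218 CPM at E14.5 in WT, a log2 fold change of 1.19 (SE 0.258, adjusted p 0.00435). At E16.5 it was at 208, 96.3, 155 and 128 CPM, and at PND0 at 179, 174, 106 and 181 CPM. Every E16.5 library was below every E14.5 library, but the difference, -0.59 (SE 0.232), did not pass (adjusted p 0.0694). Without E16.5 WT replicate 1, the library with few midbrain and cerebellum transcripts and the highest Tbr1 of its group, it was -0.82 with adjusted p 0.00538. DESeq2 also called it (adjusted p 0.0298).

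Bcl11b rose from 118, 137, 171 and 147 CPM at E12.5 to 371, 384, 352 and 349 CPM at E14.5 (log2 fold change 1.32, SE 0.0950, adjusted p 4.96e-06). It fell to 291, 200, 274 and 219 CPM at E16.5 (log2 fold change -0.54, SE 0.117, adjusted p 0.0033). The groups of these 3 stages did not overlap. At PND0 the WT libraries were at 395, 385, 212 and 332 CPM, which overlapped those of E14.5. PND0 was not tested against E14.5. Replicate 3 stood at the level of E16.5, and the change from E16.5, 0.40 (SE 0.208), did not pass (adjusted p 0.142). Without that library it was 0.57 with adjusted p 0.00263.

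Fezf2 was expressed at lower CPM and ended where it began. WT libraries measured 25.8, 51.8, 58.1 and 47.1 CPM at E12.5, 76.5, 74.5, 80.4 and 69.7 CPM at E14.5, 78.6, 40.4, 88.7 and 75.3 CPM at E16.5, and 38.7, 46.8, 43.8 and 48.9 CPM at PND0. It rose at the first step (log2 fold change 0.69, SE 0.210, adjusted p 0.0208; adjusted p 0.0761 with no filter on low counts) and fell at the last (-0.69, SE 0.218, adjusted p 0.0251), so that PND0 was back at the level of E12.5 (0.996-fold, 95% interval 0.731 to 1.36). The fall was lost in 6 of 8 fits that left out 1 library (highest adjusted p 0.0750), with no filter (adjusted p 0.0761) and without E16.5 WT replicate 1 and PND0 WT replicate 1 together (-0.57, adjusted p 0.0887). E16.5 replicate 2, at 40.4 CPM, lay among the PND0 libraries.

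Foxp2 was the flattest of the deep-layer genes. It measured 74.0, 67.5, 83.4 and 71.4 CPM at E12.5, 78.8, 84.6, 74.9 and 79.5 CPM at E14.5, 66.7, 103, 94.0 and 88.5 CPM at E16.5, and 84.7, 74.7, 113 and 85.8 CPM at PND0. No step passed. From E12.5 to PND0 it was called 1.23-fold higher (95% interval 1.03 to 1.48, adjusted p 0.0425), with overlapping groups. This call was lost in 6 of 8 fits that left out 1 library (highest adjusted p 0.110), with no filter on low counts (adjusted p 0.0871), with offsets for transcript length (adjusted p 0.328) and without the libraries that stood apart in composition (adjusted p 0.0687).

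The upper-layer genes did not move as a block. Cux2 measured 46.0, 53.7, 72.2 and 68.7 CPM at E12.5, 135, 144, 140 and 146 CPM at E14.5, 142, 108, 135 and 115 CPM at E16.5, and 192, 174, 153 and 179 CPM at PND0. It rose at the first step (log2 fold change 1.2, SE 0.122, adjusted p 5.29e-05) and again at the last (0.45, SE 0.0954, adjusted p 0.00122), with a level between them that did not pass (-0.15, SE 0.0786, adjusted p 0.12). Without E16.5 WT replicate 1 the middle step was called as a fall (-0.23, adjusted p 0.00777). With all libraries kept it was also called with no filter on low counts (-0.175, adjusted p 0.008) and with offsets for transcript length (-0.215, adjusted p 0.0451). Over the whole course Cux2 rose 2.96-fold (95% interval 2.41 to 3.64), second to Rorb among the 9 genes.

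Cux1 was at 151, 166, 169 and 198 CPM at E12.5, 224, 210, 221 and 218 CPM at E14.5, 152, 135, 159 and 151 CPM at E16.5, and 177, 179, 164 and 195 CPM at PND0. It rose by 0.32 (SE 0.0691, adjusted p 0.00269), fell by 0.52 (SE 0.0555, adjusted p 7.85e-07) and rose by 0.23 (SE 0.0744, adjusted p 0.0178) on the log2 scale. E14.5 stood above every other stage with no overlap. PND0 did not differ detectably from E12.5 (1.07-fold, 95% interval 0.932 to 1.22).

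Pou3f2, the third upper-layer gene, went the other way. It was at 108, 132, 146 and 174 CPM at E12.5, 152, 153, 159 and 139 CPM at E14.5, 140, 108, 179 and 140 CPM at E16.5, and 96.5, 98.9, 81.9 and 104 CPM at PND0. Neither of the first steps passed, and at the last step it fell by 0.60 on the log2 scale (SE 0.131, adjusted p 0.00219). Every PND0 library was below every library of the earlier WT stages. Pou3f2 was the only one of the 9 genes called lower at PND0 than at E12.5 (log2 fold change -0.52, SE 0.129, adjusted p 0.00395).

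**Figure D2:**
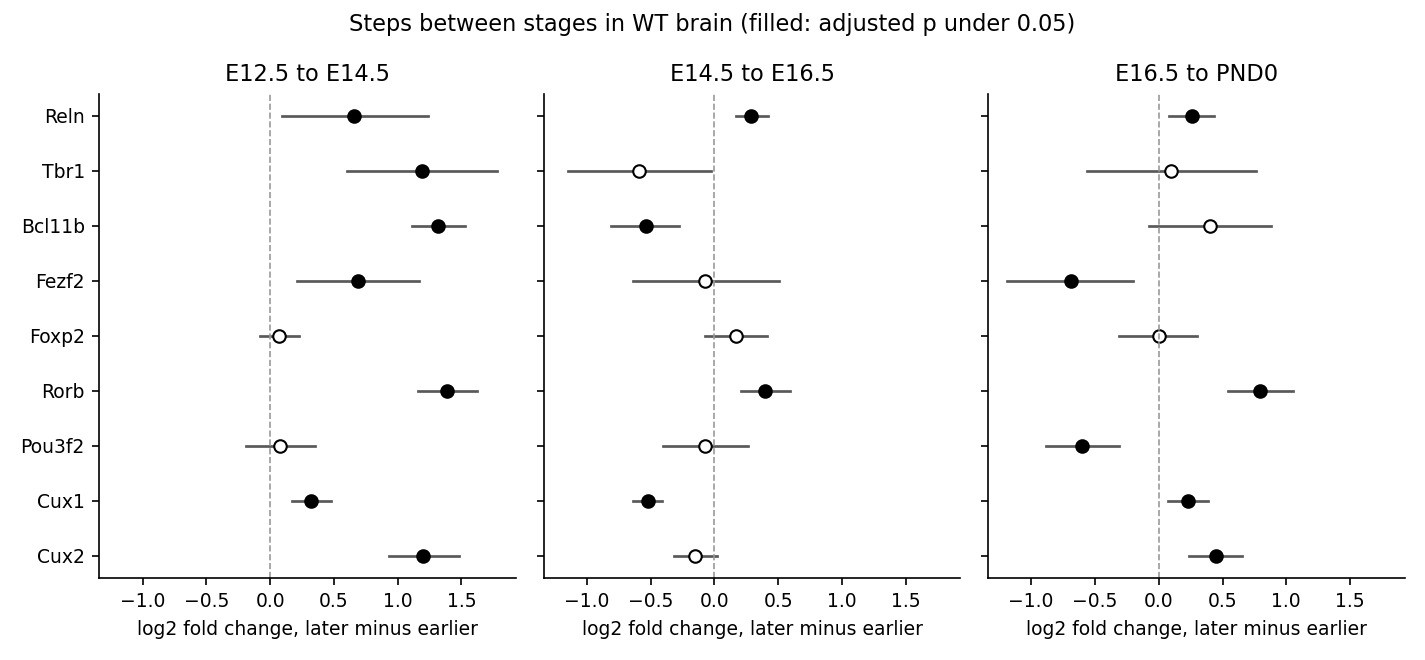
Log2 fold change of each gene (horizontal axis, later minus earlier stage) at the 3 WT steps, with 95% intervals; filled points passed the threshold. At the first step 7 points are filled and all lie right of 0, while at the later steps filled points lie on both sides.

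From E14.5 to E16.5, Reln and Rorb rose and Bcl11b and Cux1 fell, against 29.3% of all genes called higher and 28.2% lower. Leaving out E16.5 WT replicate 1 added Tbr1 and Cux2 to the genes that fell and Foxp2 to those that rose (0.27, adjusted p 0.00108), for 7 calls. In that fit 5024 of all 18422 genes tested were called higher and 5165 lower. From E16.5 to PND0, Reln, Rorb, Cux1 and Cux2 rose and Fezf2 and Pou3f2 fell (background 26.0% higher and 27.2% lower). Over the whole interval from E12.5 to PND0, Reln, Tbr1, Bcl11b, Foxp2, Rorb and Cux2 rose and Pou3f2 fell (background 34.5% higher and 36.4% lower). The call of Tbr1 (log2 fold change 0.76, SE 0.272, adjusted p 0.0265) was lost in 5 of 8 fits that left out 1 library and by DESeq2 (adjusted p 0.0538). It was also lost with no filter on low counts (adjusted p 0.167) and with offsets for transcript length (adjusted p 0.065). Without replicate 1 of both stages the log2 fold change was 0.48 (adjusted p 0.0447).

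A balance of layer 4 and upper-layer against deep-layer transcripts was read from log2 CPM. It was the mean of Rorb, Pou3f2, Cux1 and Cux2 minus that of Tbr1, Bcl11b, Fezf2 and Foxp2. In WT its means from the first to the last stage were -0.51, -0.61, -0.41 and -0.16. All 4 WT libraries of PND0, at -0.19 to -0.11, were above all WT libraries of earlier stages, whose highest value was -0.31. E14.5, at -0.67 to -0.56, was below E16.5, at -0.49 to -0.31. From E12.5 to PND0 the WT mean log2 CPM changed by 2.6 for Rorb, 1.55 for Cux2, 0.07 for Cux1 and -0.54 for Pou3f2. On the deep side it changed by 1.18 for Bcl11b, 0.79 for Tbr1, 0.26 for Foxp2 and 0.02 for Fezf2. The rise of the score to PND0 thus rests on Rorb and is not a shared shift of Pou3f2, Cux1 and Cux2. These are descriptions of a score over chosen genes, given without a test.

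Ratios of genes within a library do not depend on its scaling and are given here without a test. In WT libraries Rorb over Tbr1 was between 0.0569 and 0.125 at E12.5, between 0.0815 and 0.0906 at E14.5, between 0.129 and 0.219 at E16.5 and between 0.237 and 0.336 at PND0, and only the first 2 of these ranges overlapped. Pou3f2 over Cux2 was 2.02 to 2.53 at E12.5, then between 0.954 and 1.14 in the E14.5 libraries, between 0.988 and 1.32 in those of E16.5, and between 0.504 and 0.585 in those of PND0. The ranges of E14.5 and E16.5 overlapped, and those of E12.5 and PND0 stood apart from all others. Cux2 over Bcl11b was 0.392 to 0.468 at E12.5 and 0.453 to 0.720 at PND0, with overlap.

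**Figure D3:**
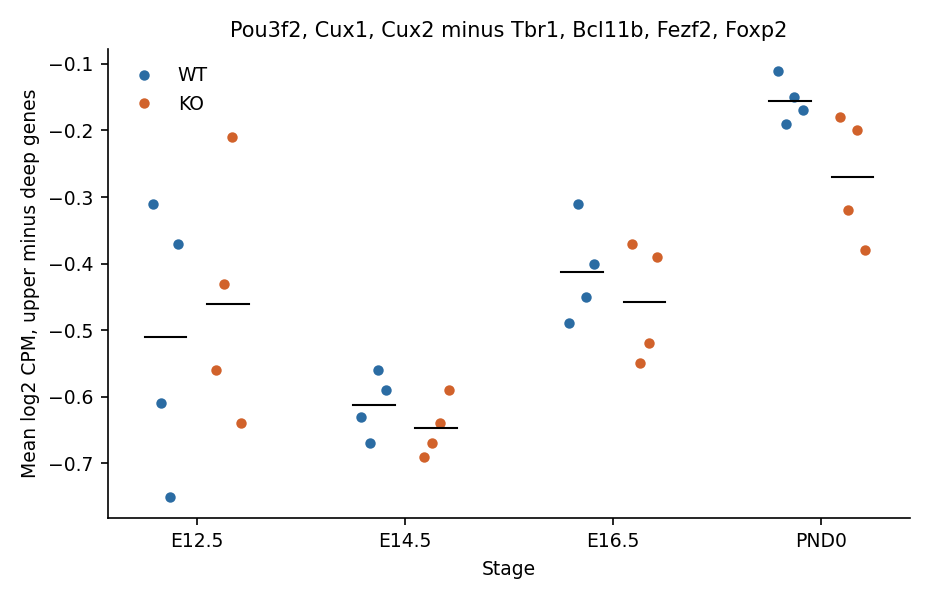
Mean log2 CPM of Rorb, Pou3f2, Cux1 and Cux2 minus that of Tbr1, Bcl11b, Fezf2 and Foxp2 (vertical axis) at each stage (horizontal axis). Points are WT (blue) and KO (orange) libraries, with group means as black bars. Rorb is part of the score, although the title of the figure does not name it. In WT the 4 PND0 libraries lie highest, at -0.19 to -0.11, and the KO libraries of PND0 lie at -0.38 to -0.18.

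Per kilobase of the longest transcript, which allows levels of different genes to be compared, Pou3f2 (25.1 CPM per kb) and Tbr1 (24.3) led at E12.5 in WT and Rorb was last (0.769). At E14.5 the order was led by Tbr1 (56.4), Bcl11b (44.9), Fezf2 (31.0) and Pou3f2 (27.0), and the same 4 genes led at E16.5. At PND0 Bcl11b (40.8) and Tbr1 (40.3) were followed by Reln (25.0) and Cux2 (19.8), and Fezf2 (18.3) had dropped to the fifth place. Rorb stayed last at every stage, at 4.73 CPM per kb at PND0. The order uses 1 transcript length per gene and would shift with the isoform expressed.

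The 6 accompanying gene lists set these courses in their setting. Of 12 further deep-layer genes, 8 rose and 1 fell from E12.5 to E14.5, with a median log2 fold change of 0.46 against -0.03 over all genes tested. Of all genes tested, 27.3% were called higher and 30.5% lower at this step, and 34.5% and 36.4% from E12.5 to PND0. Pcp4, a calmodulin-binding protein, went from 0.769 ± 0.333 to 6.14 ± 0.675 CPM (SD, n = 4, adjusted p 1.59e-05) and Syt6, a synaptotagmin, from 14.0 ± 4.03 to 35.3 ± 1.61 CPM. Crym, a thyroid hormone-binding protein, fell from 26.2 ± 10.5 to 9.25 ± 0.648 CPM. Over the whole interval 10 of the 12 rose and only Otx1, a homeodomain factor, fell (66.4 ± 19.2 to 16.8 ± 1.40 CPM). Of 12 further upper-layer genes, 7 rose and 2 fell at the first step (median 0.59), and 8 rose and 1 fell over the whole interval (median 1.05 against -0.05 over all genes). Mef2c, a MADS-box factor, rose from 31.3 ± 7.10 to 332 ± 54.6 CPM (SD, n = 4) over the whole interval, while the progenitor and upper-layer factor Lhx2 fell from 289 ± 79.9 to 111 ± 12.4 CPM.

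Most other genes of Cajal-Retzius cells did not rise with Reln. Of 8, 2 rose and 5 fell both from E14.5 to E16.5 (29.3% of all genes higher and 28.2% lower) and from E12.5 to PND0 (34.5% and 36.4%). From E14.5 to E16.5 the markers of midbrain, cerebellum and thalamus also had median log2 fold changes of -1.07, -0.99 and -0.70, and the part of composition was not tested. The shares of all genes called at the other steps, 27.3% higher and 30.5% lower from E12.5 to E14.5 and 26.0% and 27.2% from E16.5 to PND0, are the background of the counts that follow. Of the 8 genes, 2 rose and none fell from E12.5 to E14.5, and 2 rose and 1 fell from E16.5 to PND0. Calb2, which encodes calretinin, went from 12.4 ± 4.64 CPM at E12.5 to 76.0 ± 5.93 CPM at PND0 (adjusted p 1.34e-06). The transcription factors Ebf2, from 55.6 ± 4.78 to 12.3 ± 4.44 CPM, and Lhx5, from 55.6 ± 11.2 to 17.4 ± 3.60 CPM, fell. Of 8 subplate genes, 4 fell and 1 rose from E12.5 to E14.5, and 4 rose and none fell from E16.5 to PND0, among them Ccn2 (6.82 ± 1.43 to 14.4 ± 1.56 CPM) and Nr4a2 (37.6 ± 11.4 to 78.7 ± 11.2 CPM). All 3 genes that receive the reelin signal rose from E12.5 to PND0: the adaptor Dab1 from 83.9 ± 19.8 to 189 ± 10.1 CPM and the receptor Lrp8 from 163 ± 44.9 to 310 ± 20.4 CPM were named by the rule, and Vldlr, the other receptor, rose from E14.5 to E16.5 (49.7 ± 1.75 to 86.4 ± 7.19 CPM). Of 12 pallial progenitor and newborn neuron genes, 7 rose and 2 fell from E12.5 to E14.5, 1 rose and 7 fell from E14.5 to E16.5, and 8 fell and none rose from E16.5 to PND0. Neurog2, the proneural factor of the pallium, fell from 168 ± 50.1 CPM at E12.5 to 10.7 ± 4.15 CPM at PND0. Neurog1 went from 18.7 ± 6.10 to 0.106 ± 0.141 CPM.

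The second question was whether the levels of the layer genes differed between KO and WT brains. None of the 9 genes passed the threshold at any stage with edgeR or with DESeq2. Over all genes tested by edgeR, 0.0177% were called at E12.5, and the shares at the later stages were 0.527%, 0.0462% and 1.44%, so that a count of 0 among 9 lies near the background. The smallest adjusted p of the 9 genes was, in stage order, 0.875, 0.290, 0.598 and 0.123. At an unadjusted p under 0.05 there were 0, 2, 0 and 1 of the 9 genes in stage order, against 4.70%, 8.73%, 11.5% and 18.0% of all genes tested. The test of whether the KO effect changed with stage called none of the 9 (0.0256% of all genes; smallest adjusted p 0.459, for Foxp2). All groups shared 1 estimate of the spread in it, although the spread differed between stages. Its calls over all genes depended on the fit: 5 of 19541 in the main fit, 797 of 20007 without E12.5 KO replicate 1 and 346 of 15556 by DESeq2. None of the 9 was called in any of the 32 fits that left out 1 library.

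The width of the intervals differed between stages and genes. At E14.5, where they were narrowest, the 95% intervals of the log2 fold change (KO minus WT) over all 9 genes lay between -0.14 and 0.22. The KO libraries of that stage differed in ribosomal RNA, which was higher in replicates 3 and 4. Tbr1 was at 231 and 228 CPM in those and at 247 and 245 CPM in KO replicates 1 and 2. At E12.5 the intervals spanned -0.78 to 0.86, at E16.5 -0.68 to 0.73 and at PND0 -0.73 to 0.99. Reln illustrates the difference in width: KO against WT was 1.03-fold with an interval of 0.580 to 1.81 at E12.5, and 1.01-fold with 0.958 to 1.06 at E14.5. At E12.5 Reln measured 55.9, 151, 121 and 182 CPM in KO, as wide as in WT, with replicate 1 lowest in both genotypes.

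**Figure D4:**
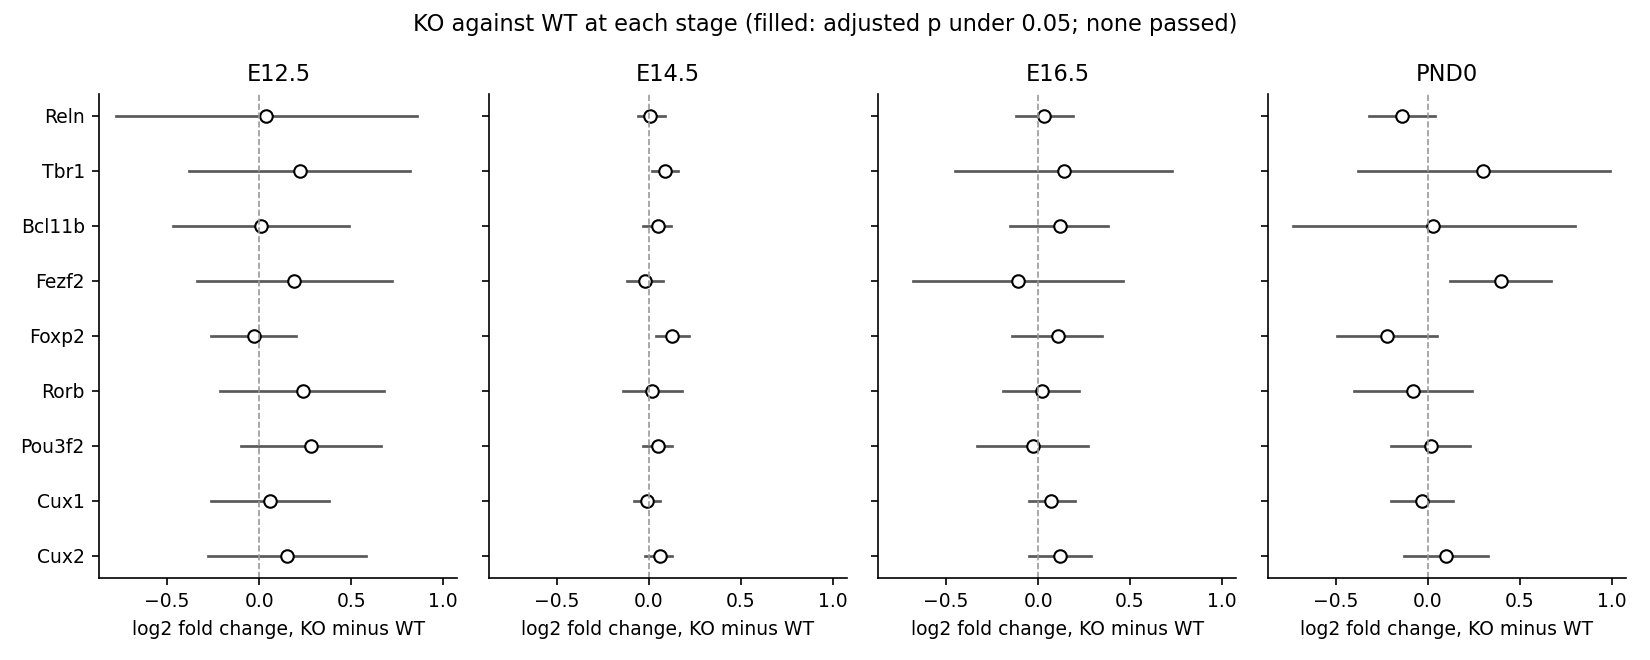
Log2 fold change of each gene (horizontal axis, KO minus WT) at the 4 stages, with 95% intervals; open points did not pass the threshold. All points are open, the intervals are narrowest at E14.5, and those of Tbr1 and Foxp2 at E14.5 and of Fezf2 at PND0 exclude 0 before adjustment.

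At PND0 Fezf2 came nearest to the threshold. KO libraries measured 50.1, 57.3, 51.3 and 77.6 CPM against 38.7, 46.8, 43.8 and 48.9 CPM in WT. The genotypes did not overlap, but replicate 4 of KO stood well above the others. The log2 fold change was 0.40 (SE 0.130, 95% interval 0.12 to 0.67, p 0.00793, adjusted p 0.123). That replicate is the library with the fewest midbrain and cerebellum transcripts, and without it and PND0 WT replicate 1 the log2 fold change was 0.19 with adjusted p 0.446. With no filter on low counts the adjusted p was 0.00736, with a log2 fold change of 0.405. That setting called 1091 of all 33525 genes tested, against 250 of 17420 in the main fit. The group means of Fezf2 in KO were 52.6, 73.8, 66.2 and 59.1 CPM from E12.5 to PND0, against 45.7, 75.3, 70.7 and 44.6 CPM in WT.

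At E14.5 the 2 genes with an unadjusted p under 0.05 were Foxp2 and Tbr1, both higher in KO by little. Foxp2 measured 86.1, 86.3, 89.9 and 85.3 CPM in KO and 78.8, 84.6, 74.9 and 79.5 CPM in WT, with no overlap (1.10-fold, 95% interval 1.03 to 1.17, p 0.00522, adjusted p 0.290). Tbr1 measured 247, 245, 231 and 228 CPM in KO against 218 to 232 CPM in WT, with overlap (1.06-fold, 95% interval 1.02 to 1.12, p 0.01, adjusted p 0.351). At PND0 Foxp2 pointed the other way, at 73.8, 72.6, 93.1 and 68.6 CPM in KO against 74.7 to 113 CPM in WT (0.858-fold, 95% interval 0.711 to 1.04), and did not pass. Neither difference was called after adjustment.

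In every other pair of groups the genotypes overlapped. Cux1 in KO was 0.992-fold of WT at E14.5 (95% interval 0.946 to 1.04), 1.05-fold at E16.5 (0.963 to 1.15) and 0.980-fold at PND0 (0.873 to 1.10). Rorb was 1.18-fold at E12.5 (interval 0.867 to 1.60) and 0.944-fold at PND0 (0.756 to 1.18), and 1.01-fold at both stages between. Pou3f2 had the largest estimate at E12.5, 1.22-fold (interval 0.935 to 1.58), with 127, 194, 200 and 169 CPM in KO against 108, 132, 146 and 174 CPM in WT. Bcl11b was 1.02-fold at PND0 with an interval of 0.603 to 1.74, since its KO libraries ran from 184 to 455 CPM.

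The courses of the KO groups over the stages had the same shape for most genes. The stage of the highest mean log2 CPM was E14.5 in both genotypes for Tbr1, Bcl11b, Fezf2 and Cux1, and PND0 in both for Reln, Rorb and Cux2. It was PND0 in WT and E16.5 in KO for Foxp2, and E14.5 in WT and E12.5 in KO for Pou3f2, where neighbouring groups overlapped. When the 8 groups were put in order of their means, Rorb went from E12.5 to PND0 with the genotypes of a stage always next to each other, and the ranges of successive stages did not overlap between neighbours of different stage. Reln kept the same order, but its E16.5 KO and PND0 KO groups, neighbours in it, overlapped. The balance of Rorb and the upper-layer genes over the deep genes averaged -0.46, -0.65, -0.46 and -0.27 in KO from E12.5 to PND0. The genotypes overlapped in it at each stage (at PND0 -0.19 to -0.11 in WT and -0.38 to -0.18 in KO).

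Some libraries of a group differed from the others in several of these genes at once. In E16.5 WT and PND0 KO the library with the highest Tbr1 (208 and 276 CPM) had the lowest Foxp2 (66.7 and 68.6 CPM), which was not so in PND0 WT, where Foxp2 was at 85.8 CPM in the library with the highest Tbr1. In E16.5 WT, PND0 WT and PND0 KO the library with the lowest Tbr1 (96.3, 106 and 117 CPM) had the highest Foxp2 (103, 113 and 93.1 CPM). At PND0 the low-Tbr1 library was replicate 3 in both genotypes, and Bcl11b (212 and 184 CPM), Rorb (35.7 and 29.9 CPM), Cux2 (153 CPM in both) and Pou3f2 were also lowest there. The 8 thalamus markers summed to 884 and 784 CPM in these 2 libraries and to 339 to 587 CPM in the other 6 of PND0, while 10 markers of striatum and ventral forebrain summed to 90.3 and 78.3 CPM against 180 to 257 CPM. The thalamus sum was lowest of their groups in E16.5 WT replicate 1 (301 CPM) and PND0 KO replicate 4 (339 CPM), the libraries with the highest Tbr1 of those groups. The part of regional composition in the differences between libraries was not tested.

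**Figure D5:**
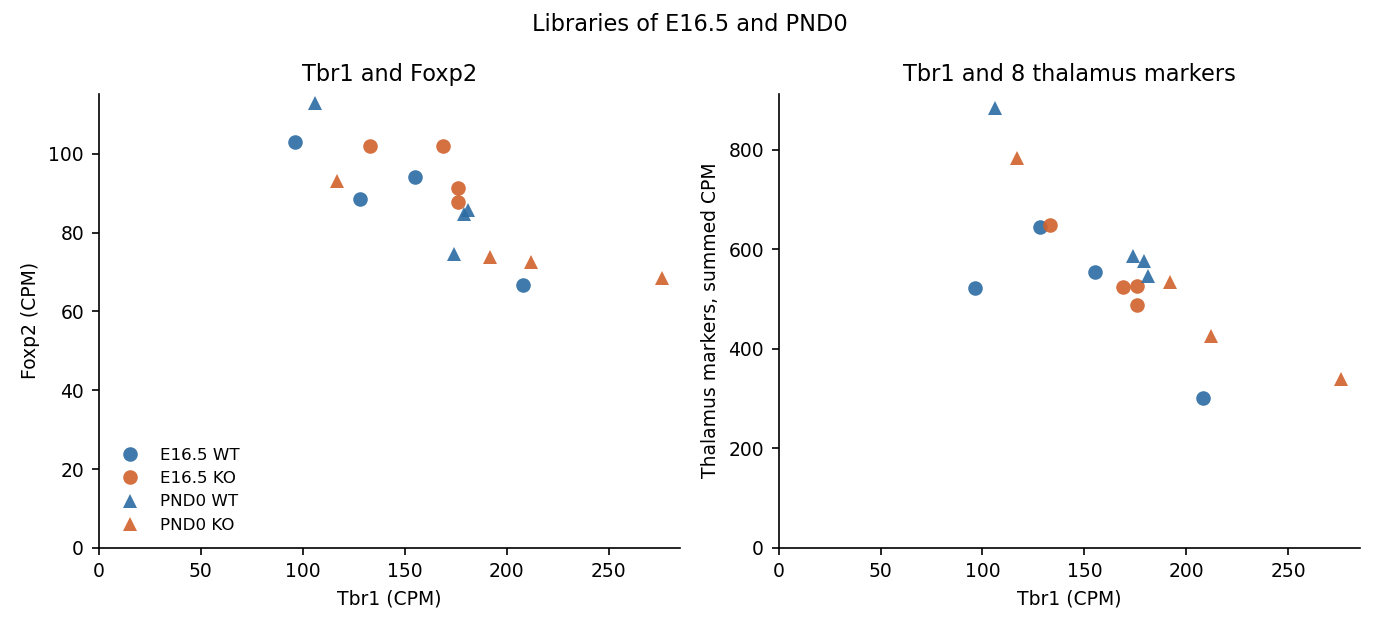
Left, Foxp2 against Tbr1; right, the summed level of 8 thalamus markers against Tbr1; all axes in CPM from 0, 1 point per library of E16.5 (circles) and PND0 (triangles), WT in blue and KO in orange. The library with the highest Tbr1, 276 CPM, has 68.6 CPM of Foxp2 and 339 CPM of thalamus markers, and that with 106 CPM of Tbr1 has 113 and 884 CPM.

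Of the 55 genes in the 6 accompanying lists, none passed in KO against WT at any stage by edgeR (of 55, 54, 55 and 53 tested), and 5, 6, 5 and 16 had an unadjusted p under 0.05 (4.70%, 8.73%, 11.5% and 18.0% of all genes tested). DESeq2 called 0, 1, 0 and 10 of them, where it called 0.129%, 1.13%, 2.35% and 7.24% of all genes it tested. At E14.5 its call was Plxnd1, a semaphorin receptor (edgeR log2 fold change 0.15, adjusted p 0.0554). At PND0 its calls included the forebrain genes Emx1 (0.60, edgeR adjusted p 0.0551), Otx1 (0.51, 0.0523) and Lhx2 (0.42, 0.0570), and Crym, Ldb2, Neurod2 and Plxnd1, as higher in KO, and Crim1 and the reelin receptor Lrp8 as lower. Lrp8 measured 260 ± 14.9 CPM in KO against 310 ± 20.4 CPM in WT (SD, n = 4 each), and the genotypes did not overlap. Without the 2 PND0 libraries that stood apart, edgeR gave adjusted p of 0.128 to 0.406 for the 10 genes called there, in a fit with fewer libraries. Log2 fold changes without them were 0.58 for Emx1, 0.53 for Crym, 0.42 for Otx1, 0.38 for Lhx2, -0.33 for Crim1 and -0.32 for Lrp8, near those with them (0.60, 0.57, 0.51, 0.42, -0.35 and -0.26), and 0.24 for Neurod2 (0.46 with them). The names above are given because DESeq2 called them, a choice made after the values were seen. At the same stage all 7 thalamus markers tested were below 0 in KO minus WT (median -0.26, smallest adjusted p 0.256), and the part of composition in these values was not tested.

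For each gene, the genes whose course over the 32 libraries was most like it were those with the smallest root-mean-square difference of centred log2 CPM, among the 16066 genes whose mean reached 1 CPM. Among the 3 genes most like Tbr1 were Cntn2 (0.258) and Srrm4 (0.261). Srrm4, a neuronal splicing factor, was also second for Bcl11b (0.213), after Klhl29 (0.196). Nearest to Fezf2 was Sox4 (0.212), to Foxp2 Gpcpd1 (0.134), to Reln Tmem178b (0.151) and to Rorb Phactr1 (0.177). Pou3f2 was nearest to Zfp579 (0.156), Cux1 to Fam168b (0.074) and Cux2 to Mgat5b (0.12). Within the 9 genes the closest pair was Tbr1 and Bcl11b (0.262), followed by Bcl11b and Cux2 (0.264). The measure mixes stage and library composition, and a flat gene such as Foxp2 has small differences to many genes.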

How the data were processed

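Messenger RNA of 32 mouse brain libraries (8 groups of 4) was measured after enrichment for polyadenylated RNA, with paired reads of 150 bp, per the labels' protocols. The authors deposited raw counts per gene symbol, not normalized, in 1 table per stage. The submitters' processing notes name mm10, HISAT2, SAMtools, featureCounts and DESeq2, without roles or versions. The annotation and strand setting are not given in the sources used here. Genes that overlap these 9 had few counts, at most 484 over all libraries.

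Each comparison was fitted with edgeR 4.0.16 in R 4.3.3 on its 8 libraries: TMM, filterByExpr (minimum count 10, minimum total 15), robust quasi-likelihood fit and F test, with Benjamini-Hochberg adjustment over all genes tested and a threshold of 0.05. All 9 genes passed the filter in every comparison. The change of the KO effect with stage was tested in a fit of all 32 libraries. SE is the log2 fold change divided by the square root of F. Log2 CPM used a prior count of 2. Scripts were tested on simulated data. No 2 libraries of a group were copies (chi-square per degree of freedom 2.899 to 114.7 over pairs).

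The 9 genes and all lists were chosen with earlier results of these data known. Named genes are the 9, Dhcr7 as a label check, at most 2 per accompanying list, comparison and direction with the largest change past the threshold, and the 3 most alike per gene. Some genes that this rule names are not reported here. Alternatives were RLE size factors, no filter, DESeq2 1.42.0, a replicate block, length offsets, all libraries in 1 fit, covariates for ribosomal RNA and sex genes (KO against WT), and each library left out. Leaving out libraries that stood apart in composition was chosen after seeing the data: replicate 1 of both genotypes at E12.5, WT replicate 1 at E16.5, and WT replicate 1 and KO replicate 4 at PND0. Coordinates are from GENCODE M21, and promoter sequences from RefSeq.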

Additional observations from a re-analysis of the deposited data

Results flagged for a closer look

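Each of the 72 groups of 4 libraries (9 genes, 8 groups) was searched for a library whose gap to its nearest neighbour took up more of the group's range than Dixon's 95% critical value allows. Chance gives about 1 in 20, and 3 were found. Reln was at 193 CPM in E14.5 KO replicate 4, against 201 to 202 CPM in the other libraries of that group. Tbr1 was at 106 CPM in PND0 WT replicate 3, against 174 to 181 CPM in the other 3. Rorb was at 5.85 CPM in E12.5 WT replicate 1, against 7.52 to 7.62 CPM in the other 3.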

How the results depend on the processing

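None of the 9 genes was called in KO against WT under any setting, with the exception of Fezf2 at PND0 without a filter on low counts (1 gene called, adjusted p 0.00736). That fit called 1091 of all 33525 genes tested, against 250 of 17420 in the main fit. The number of WT calls moved by over 1.5 times at 1 step: 7 of 9 genes from E14.5 to E16.5 without E16.5 WT replicate 1, which is also the library left out there for its composition (7), against 4. Over all genes tested, 10189 of 18422 were called in that fit, against 10162 of 17674 in the main fit. Leaving out 1 library at a time gave 6 to 8 calls from E12.5 to E14.5, 4 to 7 from E14.5 to E16.5, 4 to 6 from E16.5 to PND0 and 5 to 7 from E12.5 to PND0, and 0 in each KO comparison. Of 17650 to 18476 genes tested, these fits called 9397 to 11020, 9421 to 10189, 8255 to 9398 and 11872 to 12660 in the same order. In KO against WT they called 1 to 5, 52 to 155, 3 to 14 and 35 to 263 of 17178 to 18154 genes, in stage order. Same-numbered WT and KO libraries correlated at over 0.1 in 3 of 16 pairs (E12.5 replicates 1 and 3, PND0 replicate 3; range -0.276 to 0.303), and 4 of 16 matched their own number best. Since not every pair of any stage did so, the numbers were not taken to pair the libraries. The replicate block gave 0 calls in KO against WT, and it took away the fall of Fezf2 from E16.5 to PND0 (-0.649, adjusted p 0.0563).

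Signs changed only for log2 fold changes that were not called. With replicate block the changed values were Reln -0.00159 (KO, E12.5), Bcl11b -0.0367 (KO, E12.5) and Fezf2 0.0456 (WT, E12.5 to PND0). With sex-gene covariate the changed values were Reln -0.0366 (KO, E12.5), Bcl11b -0.095 (KO, E12.5), Fezf2 0.0177 (KO, E16.5) and Pou3f2 0.0531 (KO, E16.5). With length offsets the changed values were Foxp2 0.0374 (KO, E12.5), Reln -0.027 (KO, E16.5), Rorb -0.0326 (KO, E16.5), Reln 0.052 (KO, PND0), Rorb 0.0812 (KO, PND0), Cux1 0.161 (KO, PND0), Pou3f2 -0.0226 (WT, E12.5 to E14.5), Pou3f2 0.0173 (WT, E14.5 to E16.5), Tbr1 -0.0189 (WT, E16.5 to PND0), Fezf2 0.0141 (WT, E12.5 to PND0) and Cux1 -0.107 (WT, E12.5 to PND0). With ribosomal RNA covariate the changed values were Fezf2 0.0131 (KO, E14.5), Rorb 0.081 (KO, PND0) and Cux1 0.117 (KO, PND0). Without the libraries that stand apart they were Bcl11b -0.0284 (KO, PND0), Pou3f2 -0.0427 (KO, PND0) and Pou3f2 -0.0132 (WT, E12.5 to E14.5). With RLE size factors the changed values were Foxp2 0.011 (WT, E16.5 to PND0) and Fezf2 0.0225 (WT, E12.5 to PND0). With DESeq2 the changed values were Foxp2 0.005 (WT, E16.5 to PND0) and Fezf2 0.00464 (WT, E12.5 to PND0). With all 32 libraries in 1 fit the changed values were Foxp2 0.0535 (WT, E16.5 to PND0). Leaving out 1 library changed a sign, with these ranges, in KO against WT at E12.5 for Reln (-0.194 to 0.285), Tbr1 (-0.00486 to 0.411), Bcl11b (-0.126 to 0.173), Fezf2 (-0.00303 to 0.319), Foxp2 (-0.108 to 0.0273) and Cux1 (-0.00992 to 0.164); in KO against WT at E14.5 for Reln (-0.0218 to 0.0502), Fezf2 (-0.0586 to 0.00935), Rorb (-0.00931 to 0.0523) and Cux1 (-0.0313 to 0.00997); in KO against WT at E16.5 for Reln (-0.016 to 0.0779), Tbr1 (-0.0173 to 0.365), Fezf2 (-0.308 to 0.0172), Rorb (-0.0595 to 0.0593) and Pou3f2 (-0.147 to 0.0983); in KO against WT at PND0 for Bcl11b (-0.13 to 0.24), Rorb (-0.178 to 0.0458), Pou3f2 (-0.0528 to 0.0966) and Cux1 (-0.0703 to 0.021). In WT they were from E12.5 to E14.5 for Pou3f2 (-0.0132 to 0.191), from E14.5 to E16.5 for Fezf2 (-0.197 to 0.131) and Pou3f2 (-0.203 to 0.0463), from E16.5 to PND0 for Tbr1 (-0.0624 to 0.325) and Foxp2 (-0.129 to 0.077) and from E12.5 to PND0 for Fezf2 (-0.202 to 0.143). The cause was not tested. Each group had 4 libraries, and the 9 genes had at least 74 counts in a library. At E14.5, the stage with the narrowest intervals, the largest SE was that of Rorb (0.0793), the gene with the fewest counts. The parts of depth and of spread between libraries in the precision were not tested.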
